A study of Homo sapiens with 6 samples.

Results

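The proteasome subunit genes of FaDu cells treated with BB608 or with DMSO were examined here. They are the genes whose symbol is PSMA, PSMB, PSMC or PSMD followed by digits only, without PSMB8, PSMB9 and PSMB10. This rule gave 36 of the 20660 gene names in the deposited table. Of these, 16 belong by name to the core particle (PSMA and PSMB) and 20 to the regulatory particle (PSMC and PSMD). No measured value entered the rule, but the members were chosen with earlier results of these data known. No member was called changed between the groups, and core transcripts were more abundant per gene than regulatory transcripts in both groups.

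The proteasome degrades proteins that carry a ubiquitin chain. Its barrel-shaped core particle has outer rings of alpha subunits (PSMA genes), which gate the entry pore, and inner rings of beta subunits (PSMB genes), of which a few cut peptide bonds. The regulatory particle caps the barrel: its PSMC subunits are ATPases that unfold and thread the substrate, and its PSMD subunits bind and remove ubiquitin or hold the particle together. When proteasome activity is low, cells are known to raise all subunit genes together through the transcription factor NFE2L1.

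FaDu is an established human line derived from a hypopharyngeal squamous carcinoma, a head and neck cancer. One group received BB608, a compound known here by its code alone, and the other received DMSO, the solvent, with 3 libraries from separate biological replicates in each group. Both groups are the same line with no other allele or agent named, and neither dose nor time is given in the sources used here. Ribosomal RNA was removed from total RNA before stranded libraries were made, per the labels' protocols. The authors' table has 1 row per coding sequence with 1 FPKM value per group, taken here as pooled over the group's libraries. The table calls each group a subset, a word left unexplained in the labels, so whether all 3 libraries entered each value is unknown. FPKM (fragments per kilobase of sequence, scaled to library size) is a level per length, so genes can be set side by side. No value per library was analysed here, so a spread between replicates and the sequencing depth are unknown. In bulk RNA, fewer cells with a transcript and less of that transcript per cell cannot be told apart. Rows of a gene were added into a gene sum, which has no error. For single rows, an implied standard error (SE) was taken from the authors' statistic and p-value, and it is an approximation. The main row of a gene is its tested row with the highest mean FPKM over both groups.

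Squamous epithelial markers were present, with KRT5 at 2334 FPKM and TP63 at 32.1 FPKM in DMSO, and 2472 and 35.3 FPKM in BB608. The leukocyte marker PTPRC was at 0.00650 FPKM with DMSO and 0.00130 FPKM with BB608, and CD3E is listed at 0 in both. CD68, which is also lysosomal in other cells, was at 22.9 and 20.3 FPKM, and the highest fibroblast marker, COL1A1, was at 0.541 and 0.690 FPKM.

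The 36 members had 182 coding sequence rows, of which 141 in 34 genes were tested by the authors. By Cuffdiff's q in the authors' deposited table, none of the 34 tested genes had a row under 0.05, against 1.06% of the 11429 genes tested. By row this was 0 of 141, against 0.354% of 34474 tested rows. At a share near 1%, a count of 0 among 34 genes is close to the background and is not a result about these genes. At an unadjusted p under 0.05, the same table held 1 member row, in PSMD1, against 3.31% of all tested rows, and 1 of 34 member genes against 9.49% of all tested genes. The q of member rows ran from 0.997 to 0.999.

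All 34 tested members passed the filter of 1 FPKM or more in whichever group was higher, and the other 2, PSMA8 and PSMB11, did not. PSMA8, a testis form of an alpha subunit, is listed at 0 in both groups. PSMB11, a catalytic subunit of the thymus, was at 0.0105 FPKM with DMSO and 0.0593 FPKM with BB608 and was not tested.

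The gene sums of the 34 members had a median log2 fold of BB608 over DMSO of -0.01, with 13 higher and 21 lower in BB608. After scaling by the median log2 ratio of all kept genes the split was 8 higher and 26 lower, and after quantile normalization 8 higher and 25 lower with 1 equal. Over all 10859 genes kept by the same filter the median was 0.03, with 6253 higher and 4606 lower. For 26 members (76.5%) the fold lay within 0.1 log2, and for 32 (94.1%) within 0.25 log2. Of the 2899 kept genes whose DMSO gene sum lay in the members' range, 59.1% and 91.2% did so. These shares are a description, and members are not replicates of a condition. Together the members held 1.11% of all FPKM in DMSO and 1.07% in BB608.

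**Figure D1:**
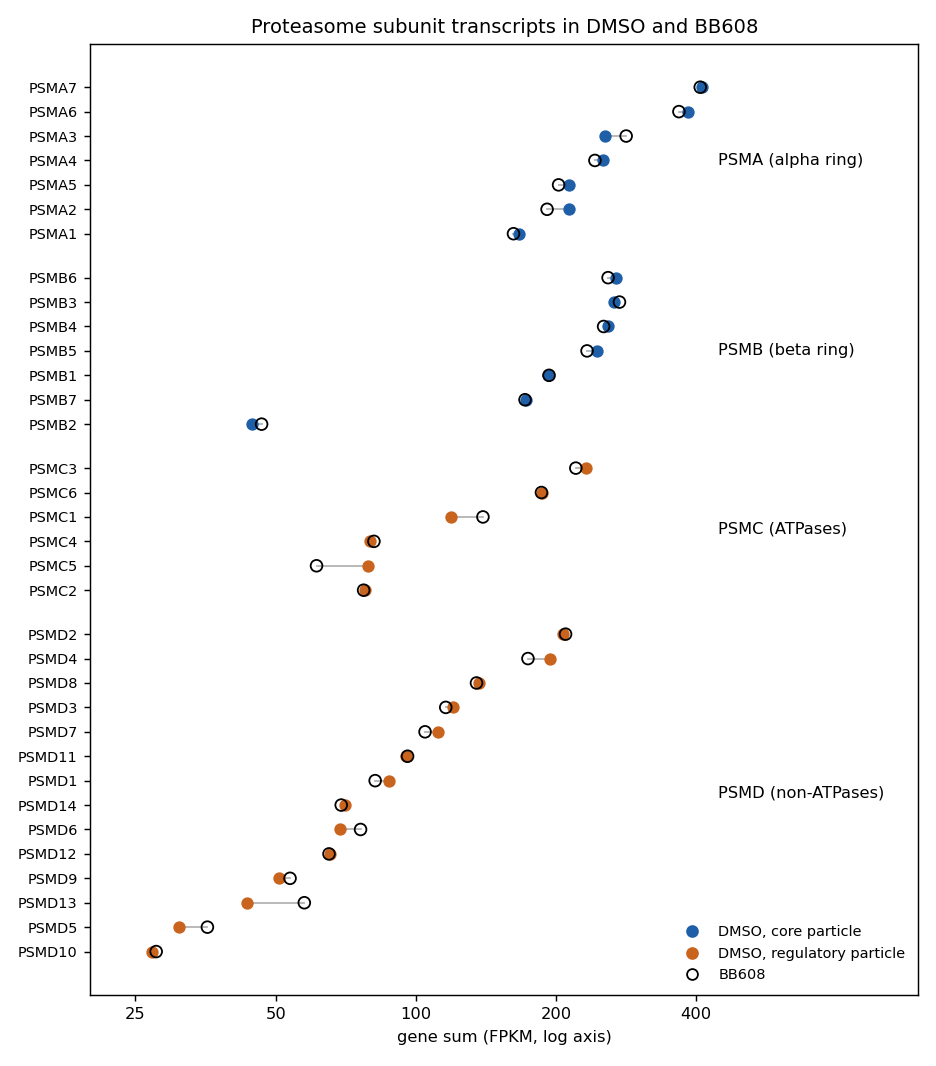
Gene sums (FPKM, log axis) of the 34 expressed subunit genes, grouped by class and ordered by their level in DMSO. Filled points are the DMSO value (blue for core, orange for regulatory particle) and open circles the BB608 value; each is 1 pooled value with no error bar. The points nearly coincide for most genes, and PSMC1, PSMC5 and PSMD13 are set furthest apart.

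The alpha ring genes were among the most abundant members. PSMA7 had the highest gene sum of all members, at 412 FPKM with DMSO and 408 FPKM with BB608, followed by PSMA6 at 383 and 367 FPKM. PSMA1 had the lowest gene sum among the 7 expressed alpha genes, at 166 and 162 FPKM. The alpha genes thus ran from 166 to 412 FPKM in DMSO, with the same genes at both ends in the 2 groups. PSMA4 was at 252 and 242 FPKM and PSMA5 at 214 and 203 FPKM. In BB608, 6 of the 7 alpha genes were lower, with a class median of -0.06 log2.

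PSMA2 had the most negative alpha fold, from 213 to 191 FPKM or -0.15 log2. Its more abundant row had a fold in log2 of -0.13 (implied SE 0.16; p 0.386) in the authors' deposited table. This difference is smaller than its SE. One further row carries the joint name DKFZP686D09174,PSMA2, falls outside the rule, and went from 16.2 to 22.8 FPKM with a fold in log2 of 0.50 (implied SE 0.32; p 0.126) in that table. PSMA3, which also has the most positive alpha fold, went from 255 to 283 FPKM, or 0.15 log2. That difference lay in minor rows. The main PSMA3 row was at 197 FPKM in both groups, with a fold in log2 of 0.00 (implied SE 0.27). A minor row went from 15.2 to 32.7 FPKM, a fold in log2 of 1.10 (implied SE 0.50; p 0.0501, q 0.997) in the authors' deposited table.

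Several beta ring genes had small implied SEs, among them 3 genes with 1 row each. PSMB1, a structural beta subunit encoded on chromosome 6 (authors' locus 170844204 to 170862429, hg19), was at 192 FPKM with DMSO and 193 FPKM with BB608. Its log2 fold was 0.01 in the authors' deposited table, with a 95% interval from the implied SE of -0.19 to 0.20. PSMB4, on chromosome 1 (151372009 to 151374420, hg19), was at 258 and 253 FPKM, with an interval of -0.22 to 0.16. PSMB2, on chromosome 1 (36066764 to 36107445, hg19), was at 44.5 and 46.6 FPKM, with an interval of -0.12 to 0.26. For these 3 genes a change of 0.5 log2 in either direction lies outside the interval.

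PSMB2 stood apart from the other expressed core genes by level. Each of the other core genes was at 162 FPKM or more in both groups. PSMB2 was below 17 of the 20 regulatory genes in DMSO. Its level has 1 row and no listed alternative coding sequence. No spread of its level over libraries was analysed here.

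The 3 catalytic beta subunits of the standard proteasome were at like levels in the 2 groups. PSMB6, which cuts after acidic residues, went from 269 to 259 FPKM, the highest beta gene sum in DMSO. PSMB7, which cuts after basic residues, went from 173 to 172 FPKM. PSMB5, which cuts after hydrophobic residues and is the main target of proteasome inhibitor drugs, went from 244 to 233 FPKM. All of them were slightly lower in BB608, by -0.06, -0.01 and -0.07 log2. The main rows of PSMB6 and PSMB7 had intervals of -0.21 to 0.18 and -0.20 to 0.19 in log2 fold. The reads of PSMB5 were divided over 6 rows, and its most abundant row had an interval of -0.46 to 0.18. PSMB3, a non-catalytic subunit, was at 266 and 274 FPKM.

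**Figure D2:**
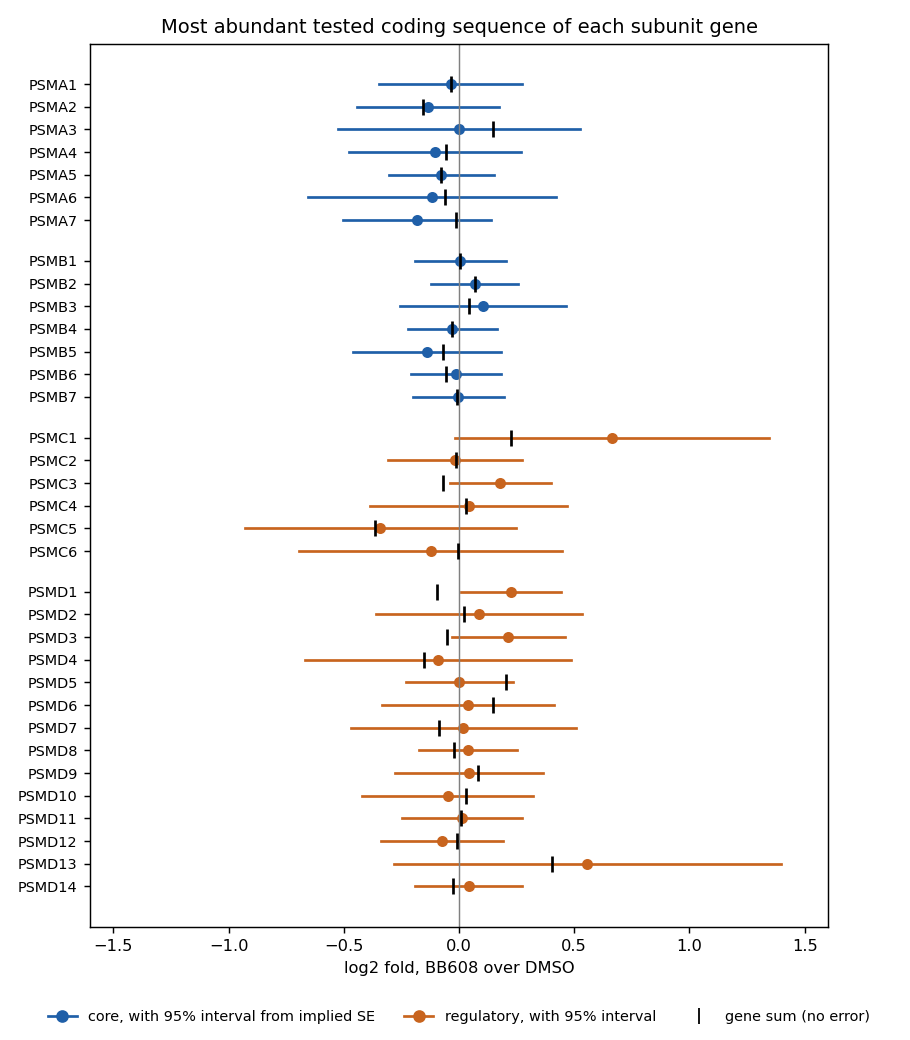
Log2 fold of BB608 over DMSO for the most abundant tested coding sequence of each of 34 genes (points) with the 95% interval from the implied SE (lines), and the fold of the gene sum (black ticks). The interval crosses 0 in all but PSMD1, and the widest intervals belong to PSMC1, PSMC5 and PSMD13.

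The folds of the 6 ATPase genes of the regulatory particle base had an SD of 0.19 log2, against 0.14 for the PSMD genes. PSMC3 had the highest level among them, at 232 FPKM with DMSO and 221 FPKM with BB608, and PSMC6 was at 187 and 186 FPKM. PSMC2 was lowest in DMSO, at 77.9 FPKM, and was at 77.2 FPKM in BB608. PSMC4 was close to it, at 79.7 and 81.3 FPKM. These 4 genes had folds within 0.1 log2.

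PSMC5 went from 78.8 to 61.2 FPKM, or -0.36 log2, the most negative fold of any member. Its most abundant row, at 36.7 FPKM in DMSO, had a fold of -0.34 log2 (implied SE 0.30; p 0.259, q 0.997) in the authors' deposited table. The interval of -0.93 to 0.25 includes 0. PSMC1, on chromosome 14 (90722838 to 90738970, hg19), went from 119 to 139 FPKM, or 0.23 log2. Its 2 tested rows moved in opposite directions, from 50.6 to 80.1 FPKM and from 68.4 to 59.2 FPKM. The first is the main row by its mean, although the other was higher in DMSO. The first had a fold in log2 of 0.66 (implied SE 0.35; p 0.0597, q 0.997) and the other -0.21 (implied SE 0.50; interval -1.19 to 0.78) in the authors' deposited table. Neither differed beyond the authors' threshold, and how reads of 1 gene were divided between its rows was not tested.

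The PSMD genes ranged from 27.1 to 207 FPKM in DMSO. PSMD2, the large scaffold subunit that binds ubiquitin-like domains, was highest at 207 FPKM with DMSO and 210 FPKM with BB608. PSMD4, a ubiquitin receptor, had the most negative fold of the class, from 194 to 174 FPKM or -0.15 log2. Its most abundant row had a fold in log2 of -0.09 (implied SE 0.29; p 0.755) in the authors' deposited table. PSMD14, the deubiquitinase of the lid, was at 70.4 and 69.1 FPKM, with an interval for its main row of -0.19 to 0.27. PSMD11 and PSMD12, lid subunits, were at 95.3 and 96.0 FPKM and at 65.5 and 65.1 FPKM. PSMD3, PSMD7 and PSMD8 had folds between -0.09 and -0.02 log2, and PSMD6 had 0.15.

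PSMD13, a lid subunit, had the most positive fold of any member, from 43.5 to 57.6 FPKM or 0.41 log2. Its most abundant row went from 22.5 to 33.1 FPKM, with a fold in log2 of 0.56 (implied SE 0.43; p 0.182, q 0.997) in the authors' deposited table. The interval, -0.28 to 1.40, includes 0.

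PSMD1, the other large scaffold subunit, on chromosome 2 (231921577 to 232037541, hg19), held the only member row with an unadjusted p under 0.05. This row went from 51.8 to 60.5 FPKM, with a fold in log2 of 0.22 (implied SE 0.11; p 0.0414, q 0.997) in the authors' deposited table. The gene sum went the other way, from 87.5 to 81.8 FPKM or -0.10 log2. A less abundant row was at 20.1 FPKM in BB608 with a fold of -0.53 log2, and a minor row went from 5.80 to 0.904 FPKM, with implied SEs of 0.54 and 1.28. Cuffdiff's p for these rows was 0.328 and 0.195 in the authors' deposited table, with a q of 0.997 for each. For the minor row the implied SE gives an interval of -5.18 to -0.18 in log2 fold, which leaves out 0. Cuffdiff's p of 0.195 does not, so the implied SE is a poor approximation for that row. The direction for PSMD1 therefore depends on whether 1 row or the gene is taken.

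PSMD5, PSMD9 and PSMD10 carry subunit names but are chaperones that help assemble the ATPase base and are not part of the finished particle. They were among the least abundant members, at 31.0, 50.8 and 27.1 FPKM in DMSO and 35.7, 53.7 and 27.7 FPKM in BB608. PSMD10 was the lowest of the 34. All 3 gene sums were higher in BB608, by 0.20, 0.08 and 0.03 log2, except that PSMD10 was lower after scaling by the median log2 ratio or quantile normalization, and none was called. The main PSMD5 row was at 19.2 FPKM in both groups, with an interval of -0.23 to 0.23, and the difference in its gene sum lay mostly in a minor row that went from 4.15 to 9.47 FPKM. Without these 3 genes, the remaining 11 PSMD genes had a median of -0.02 log2.

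Core transcripts were at a higher level per gene than regulatory transcripts. The 14 expressed core genes had a median gene sum of 248 FPKM with DMSO and 238 FPKM with BB608. The 20 regulatory genes had medians of 83.6 and 81.5 FPKM. The mean per gene was 2.29 times higher in the core in DMSO and 2.27 times higher in BB608. The regulatory mean includes the low chaperone genes PSMD5, PSMD9 and PSMD10, which widens this contrast, and the core mean leaves out PSMA8 and PSMB11. In DMSO the core mean was 239 FPKM, against 129 FPKM for the PSMC genes and 109 FPKM for the PSMD genes without the chaperones. In BB608 these means were 235, 128 and 108 FPKM. In each group 8 core genes exceeded the highest regulatory gene, and 9 of the 10 most abundant members in DMSO were core genes. No regulatory gene reached the core median in DMSO. Ranked among all 10859 kept genes by DMSO level, the core genes had a median percentile of 97.2 and the regulatory genes 90.5.

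By fold, the core median was -0.03 log2 and the regulatory median -0.01 log2, a difference of -0.03. The log2 ratio of the summed FPKM was -0.02 for the core and -0.01 for the regulatory particle. No error can be given for these values and no test was made, because members are not replicates and each group has 1 pooled value. The sums were 3342 and 3286 FPKM for the core, and 2082 and 2068 FPKM for the regulatory particle.

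**Figure D3:**
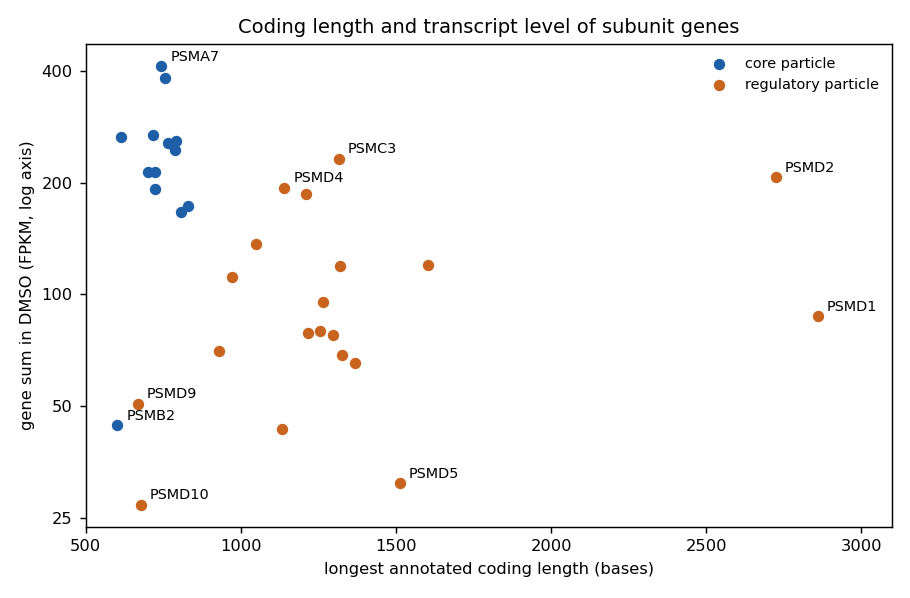
Gene sum in DMSO (FPKM, log axis) against the longest annotated coding length (bases) of the 34 expressed genes. Core genes (blue) lie between 603 and 831 bases and, except PSMB2, at high level; regulatory genes (orange) lie between 669 and 2859 bases.

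Core genes also share a short coding sequence, which the rule did not use. In GENCODE 29 their longest coding length ran from 603 to 831 bases, with a median of 750. Regulatory genes ran from 669 to 2859 bases, with a median of 1260, and only PSMD9 and PSMD10 were as short as a core gene. These 2 chaperone genes were at low level. Across the 34 genes, Spearman's rho between coding length and DMSO gene sum was -0.32. Within the 20 regulatory genes it was 0.23 and within the 14 core genes -0.08. The points are genes of the same pooled libraries and not independent replicates. Length and particle are nearly separate sets here, so their parts in the difference in level cannot be told apart.

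Precision differed between genes. The main row of each of the 34 genes had an implied SE between 0.097 and 0.43, with a median of 0.16. This row held a median of 61.2% of the gene sum in DMSO, and 33.5% at the least. Its interval therefore does not bound the change of the whole gene. For 24 genes the 95% interval of the main row lay within 0.5 log2 of 0, and for 32 within 1 log2. PSMC1 and PSMD13 were the exceptions to the wider bound. In 10 genes a change of 0.5 log2 in the main row therefore lies inside the interval, in at least 1 direction, and missing the q threshold is no evidence that they stayed level. Only the interval of PSMD1 left out 0. Of the 34 main rows, 17 were higher and 17 lower in BB608.

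Single rows scattered far more than genes. Of 141 tested rows 81 were lower and 60 higher in BB608, and 26 of the 30 genes with more than 1 tested row had rows in both directions. A fold beyond 1 log2 was found in 25 rows, with a median mean level of 1.74 FPKM and a median implied SE of 1.87. None of these rows had a mean above 24.0 FPKM. The 31 rows with a mean of at least 50 FPKM had folds of at most 0.66 log2 in size.

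**Figure D4:**
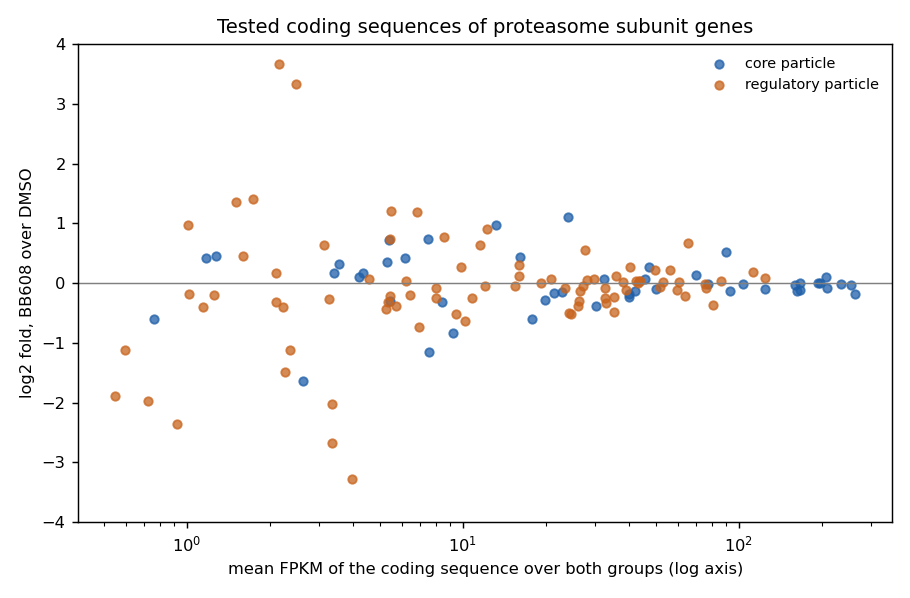
Log2 fold of BB608 over DMSO against mean FPKM (log axis) for 134 of the 141 tested coding sequences of subunit genes, leaving out 7 with a mean under 0.5 FPKM or a fold beyond 4 log2. The spread narrows with level, and rows of at least 50 FPKM lie within 0.66 log2 of 0.

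Genes around the proteasome were taken from 8 lists, with 44 genes in the table and 43 tested. Of these 1 fell by the authors' q and 42 were not called, against 1.06% called among all tested genes. The lists were chosen with earlier results of these data known, so this count is a description and not a rate for such genes. The immunoproteasome subunits PSMB8, PSMB9 and PSMB10, which replace the catalytic beta subunits after interferon, were at 34.6, 18.8 and 9.80 FPKM in DMSO and 36.4, 18.8 and 9.06 FPKM in BB608. They were thus well below PSMB5, PSMB6 and PSMB7 in both groups, and 0 of 3 were called. Of the activators and the inhibitor, 0 of 5 were called: PSME1 and PSME2, the subunits of one activator cap, were at 176 and 304 FPKM in DMSO and 171 and 300 FPKM in BB608. PSME4, a single-chain activator, had the largest fold of this list, from 9.11 to 11.6 FPKM or 0.35 log2, with 0 of 3 tested rows called.

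The core assembly chaperones had 0 of 5 called and a median of -0.03 log2. POMP, the maturation factor of the beta ring, was at 74.0 and 71.2 FPKM, with a fold in log2 of -0.06 (implied SE 0.11) in the authors' deposited table. PSMG4 had the largest fold, from 11.4 to 9.31 FPKM or -0.30 log2. Regulatory particle genes of other names had 0 of 3 called. The ubiquitin receptor ADRM1 was at 57.7 and 64.1 FPKM and SHFM1, a small lid subunit, at 194 and 209 FPKM, or 0.15 and 0.11 log2. Proteasome-bound factors had 0 of 7 called, with a median of 0.05 log2, and the largest fold was that of ZFAND2A, at 7.65 FPKM in DMSO and -0.35 log2.

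Among the regulators, 1 of 7 fell. MAFF, a small MAF protein that pairs with NFE2L1 and NFE2L2 on DNA, had a called row that went from 21.7 to 10.3 FPKM, a fold in log2 of -1.07 in the authors' deposited table, with q 0.0154 and an implied SE of 0.15. Its gene sum went from 26.3 to 14.3 FPKM, or -0.88 log2. The other small MAF genes were not called, with MAFG at 12.9 and 12.1 FPKM and MAFK at 3.16 and 3.18 FPKM. NFE2L1, the activator of proteasome genes, was at 105 FPKM with DMSO and 97.9 FPKM with BB608, with 0 of 13 tested rows called. NFE2L2, the antioxidant response factor, was at 63.7 and 59.5 FPKM, with a lowest unadjusted p of 0.0336 (q 0.997) over its 9 tested rows in the authors' deposited table. The row with this p is a minor row that went the other way from the gene sum. It went from 4.09 to 8.21 FPKM, a fold in log2 of 1.01 (implied SE 0.47). DDI2, the protease that activates NFE2L1, was at 9.40 and 10.3 FPKM, and NGLY1, which removes its sugars, at 16.7 and 14.6 FPKM.

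The shuttles and the segregase that bring substrates to the proteasome had 0 of 7 tested genes called and a median of 0.05 log2. VCP, the segregase ATPase, was at 25.4 and 26.4 FPKM. Its cofactor NPLOC4 had the largest fold, from 44.2 to 60.0 FPKM or 0.44 log2. UBQLN2 is listed at 0 in both groups and was not tested. Of the ubiquitin and ubiquitin-activating enzyme genes 0 of 6 were called. UBB, a polyubiquitin gene, was at 789 and 765 FPKM.

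**Figure D5:**
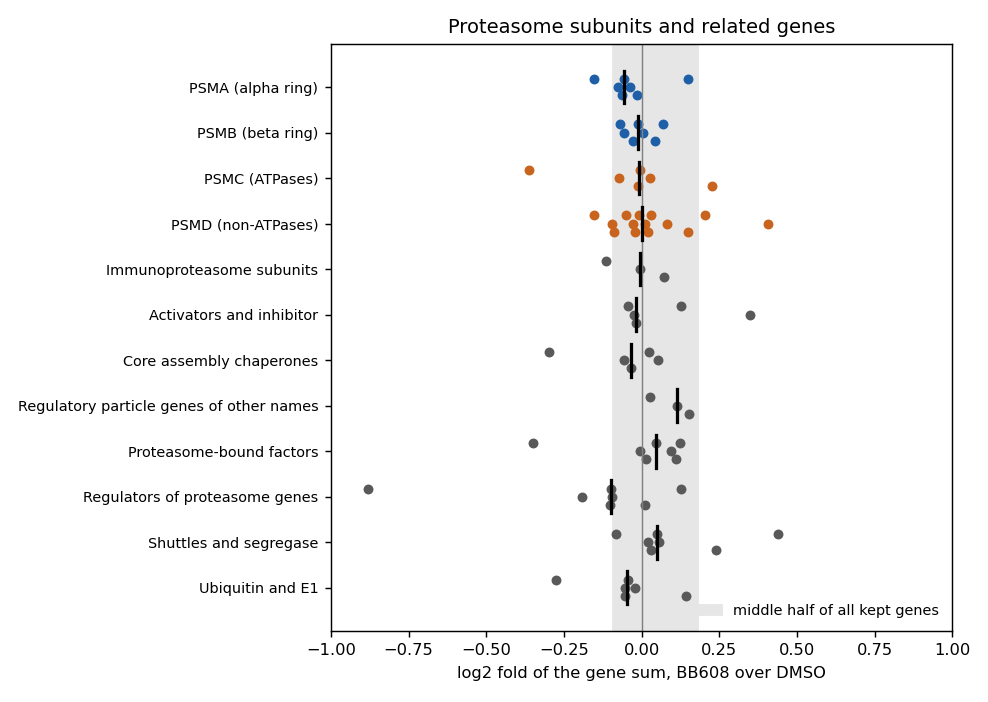
Log2 fold of the gene sum of BB608 over DMSO for each gene (points) of the 4 subunit classes (blue and orange) and 8 lists of related genes (grey), with the median of each as a black line and the middle 50% of all kept genes as a band. The class medians lie between -0.06 and 0.00, and MAFF is the point at -0.88 among the regulators.

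NFE2L1 and NFE2L2 bind, with a small MAF partner, the antioxidant response element, whose core was searched as TGACNNNGC on both strands from 250 bases before to 50 after each start in RefSeq (GRCh38.p14). RefSeq promoters were matched for 31 of the 36 members, 37 promoters in all. The core was found in 9 of 37, or 24.3%, against 13.3% of 35116 promoters of all genes and 14.4% of promoters of genes tested here. Core particle genes had it in 2 of 16 promoters and regulatory particle genes in 7 of 21. Coverage was uneven: the core genes PSMA7, PSMB1, PSMB6 and PSMB7 and the regulatory gene PSMD4 had no matched promoter. PSMA4 had 3 promoters, and PSMA6, PSMB5, PSMC5 and PSMD2 had 2 each. Counted by gene, the element was found in 9 of 31. The CCAAT box of NF-Y was searched likewise, whether or not it overlapped the first motif, and found in 17 of 37, or 45.9%, against 34.6% of all promoters. No member was called, with the element or without it.

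The elements upstream of the start are shown for 4 of 5 genes with 1 listed start and such a match, to show what the match looks like beside genes whose transcripts stayed uncalled. Capitals mark the 9 bases of the match, and each stretch has 41 bases, written 5′ to 3′ on the gene's strand.
PSMB3 (chr17:38752621-38752661, plus strand): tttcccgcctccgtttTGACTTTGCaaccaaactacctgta
PSMD3 (chr17:39980754-39980794, plus strand): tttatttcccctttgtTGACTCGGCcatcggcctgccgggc
PSMD5 (chr9:120843032-120843072, minus strand): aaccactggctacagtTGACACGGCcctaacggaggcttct
PSMD12 (chr17:67366718-67366758, minus strand): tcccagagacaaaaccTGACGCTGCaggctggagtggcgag
Relative to the start, the match begins at -104 in PSMB3, -37 in PSMD3, -134 in PSMD5 and -165 in PSMD12. The gene sums of these genes had log2 folds of 0.04, -0.05, 0.20 and -0.01. The fifth gene, PSMD9, has matches at -149 and -102 and is not shown. A match is a description of the letters, and binding was not measured.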

How the data were processed

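RNA sequencing was done on 6 libraries, 3 per group. Per the submitters' processing notes, TopHat2 2.0.11, Cufflinks 2.2.1 and Cuffdiff were used with build hg19; the sources used here give no annotation. The authors' deposited table gives pooled FPKM per group and coding sequence, a log2 fold, its p-value and q-value, and a test statistic, used as a score. The q equals a Benjamini-Hochberg adjustment over all 34474 tested rows to within 5.23e-07. A gene was called where a tested row had q under 0.05; the smallest p, 5e-05, gives a q of 0.0154.

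To obtain the implied SE, the fold was divided by the statistic and by a scale of 1.74, the median over 34310 rows (quartiles 1.65 and 1.79) of the ratio of p's normal quantile to the size of the statistic. It covers only the spread that Cuffdiff modelled. Kept genes had a single name, a tested row, no row of failed or low data status, and 1 FPKM or more in whichever gene sum was higher. Folds are log2 ratios of gene sums with no pseudocount. The design had foreseen limma for values per library and a description otherwise; the latter applied. Members and lists were chosen with earlier results of these data known. Named are the highest and lowest level and most positive and negative fold of each class, the catalytic, chaperone and tissue-restricted members, rows at p under 0.05, and up to 3 genes per list; further genes are named for their role, to complete a class or list. Protein sequences were not used here, and 1 gene of a list is counted but not reported by name. The calculations of the adjustment and the implied SE were run on simulated rows made with a fixed scale and normal p-values. That run checks the calculation, and it cannot show how well the implied SE holds in these data. Python 3.11.15, pandas 2.3.3 and scipy 1.17.1 were used.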

Additional observations from a re-analysis of the deposited data

How the results depend on the processing

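No paired analysis was possible because each group has 1 pooled value; for the same reason no replicate was left out and limma with a replicate block was not run. The count of 0 called members was the same with normal p-values from the statistic and with filters of 1 and 5 FPKM. These settings could hardly have changed it. Cuffdiff's lowest unadjusted p for a member row was 0.0414 in the authors' deposited table, with a q of 0.997. Over 10 alternatives the core median log2 fold ran from -0.07 to -0.03, the regulatory median from -0.04 to 0.04 and their difference from -0.07 to -0.02. Some of these alternatives could not change the medians. A filter of 5 FPKM on gene sums, and admitting members of other status, kept the same genes. Leaving out PSMA8 and PSMB11, which were not kept, also changed nothing. Scaling by the median log2 ratio moves both medians alike, so it cannot change their difference. The regulatory median was above 0 only when the most abundant row stood for each gene. Without the most abundant member of each particle, the core stood at 2.31 times the regulatory mean in DMSO and 2.28 times in BB608. Of 170 folds of single members under 5 alternatives, 164 moved by less than the implied SE of the gene's main row. The 6 that moved further, all with the most abundant row, were PSMA7, PSMC1, PSMC3, PSMD1, PSMD3 and PSMD5, and 8 of 34 folds changed sign in that setting. Scaling by the median log2 ratio shifts every fold by 0.0349, which is below the smallest implied SE of a main row, 0.097. A pseudocount of 0.1 or 1 FPKM is small beside member gene sums of 27.1 FPKM or more. These alternatives could not move a fold beyond that SE, so the count of 164 is little evidence of stability. Depth and the spread between libraries are unknown, which limits every value here.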
